A study of Musca domestica with 29 samples.

Results

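Sxl (Sex-lethal, GeneID 101898639) is 1 of the 16540 genes in each of the tables of normalized read counts made from abdomens and heads of the house fly, Musca domestica. It was found by its symbol in both tables and is described here across all 29 libraries of the study. The tables place it on Muller element A, which is chromosome III of this species, and the RefSeq gene table lists 9 transcripts and 9 proteins for it and 0 genes that overlap it. The counts are per gene, so the isoforms of Sxl are summed in every value.

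House fly males can carry the male-determining locus on different young Y chromosomes (proto-Y chromosomes), among them the Y itself (YM) and chromosome III (IIIM). Female libraries came from strains IsoCS (replicate 1) and CSrab (replicate 2) in both tissues, and from CS (replicate 3) in head as well, which gave 2 abdomens and 3 heads. Males of 4 genotypes had 3 libraries per tissue each. These were YM males of strain IsoCS, YM males of strain bwbCS that also differ in 1 copy of chromosome III (YM(III)), IIIM males of strain CS (IIIM #1) and IIIM males of strain CSrab (IIIM #2). The females are labelled as isogenic with one another, and the male backgrounds as isogenic apart from the named chromosomes. The labels give no age and no treatment, and every library was made from tissue of individually dissected flies.

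Sxl encodes an RNA-binding protein with a pair of RNA recognition motifs. In Drosophila it is the master switch of sex: the active protein is made in females, where it directs the splicing of its own transcript and of transformer and blocks translation of msl-2, a component of dosage compensation. In the house fly the male-determining locus acts on transformer, and Sxl is not known as the switch of sex. The gene is nevertheless kept in this species, and its transcript is made in both sexes.

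Sxl transcript was more abundant in female abdomens than in abdomens of every male genotype, and less abundant in female heads than in male heads. In abdomen the difference was 2.91-fold, and in head the female level was 0.774 of the male level. The head difference passed narrowly (limma adjusted p = 0.0437) and lost its call in 11 of 15 fits without 1 library. Against single male genotypes it passed for IIIM #2 males alone. Among males, Sxl did not pass the test in any comparison of genotypes in either tissue. IIIM #2 males had the highest mean of the 4 male genotypes in both tissues.

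In abdomen, Sxl had 704 and 794 normalized read counts in the females. YM males had 238, 161 and 271, YM(III) males 266, 237 and 244, IIIM #1 males 263, 239 and 263, and IIIM #2 males 315, 361 and 264. Both female libraries lay above all 12 male libraries, and the genotypes of males overlapped one another, except that IIIM #1 (239 to 263) lay just below IIIM #2 males (264 to 361). How many of all genes separate in these ways was not computed, and limma called 71.3% of genes between the sexes in abdomen. The group means ± SD were 749 ± 63.6 in females (n = 2), 223 ± 56.6 in YM, 249 ± 14.8 in YM(III), 255 ± 14.1 in IIIM #1 and 313 ± 48.4 in IIIM #2 males (n = 3 each). In order of level, females came first and IIIM #2, IIIM #1, YM(III) and YM males followed. The gap between females and IIIM #2 males was several times the SD of either group. The step between IIIM #2 and IIIM #1 males was slightly larger than the larger SD of the pair, and IIIM #1, YM(III) and YM males differed from their neighbours by less than it.

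In head, Sxl had 1077, 1268 and 1022 normalized read counts in the females. YM males had 1355, 1268 and 1503, YM(III) males 1447, 1459 and 1364, IIIM #1 males 1280.4, 1189.5 and 1412, and IIIM #2 males 1632, 2022 and 1570.0. The IsoCS and CS females lay below all 12 male libraries, and the CSrab female lay above 1 of them, an IIIM #1 male. The group means ± SD were 1122 ± 129 in females, 1376 ± 119 in YM, 1424 ± 51.5 in YM(III), 1294 ± 112 in IIIM #1 and 1741 ± 245 in IIIM #2 males (n = 3 each). The order was IIIM #2, YM(III), YM and IIIM #1 males, with females last. YM(III), YM and IIIM #1 males differed from their neighbours in this order by less than the larger SD of the pair, while the steps between IIIM #2 and YM(III) males and between IIIM #1 males and females were larger than it.

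**Figure D1:**
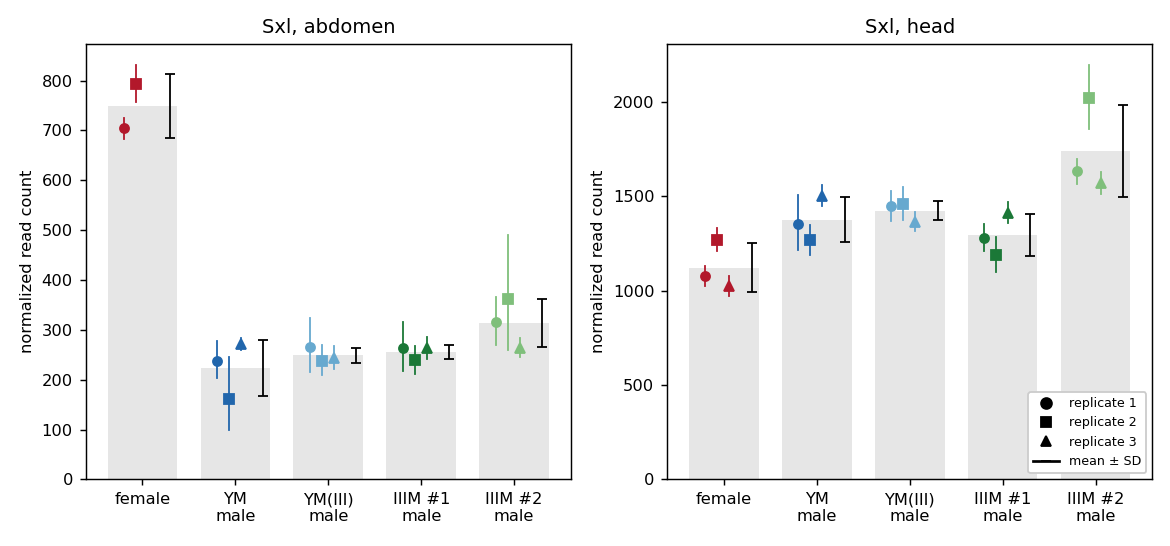
Normalized read count of Sxl on linear axes for each library of abdomen (left) and head (right), by group. Symbols are libraries with the 95% counting interval of their reads, grey bars are group means and black bars show the mean ± SD. The 2 female abdomens, at 704 and 794, stand above all 12 male abdomens (161 to 361), and the 3 female heads (1022 to 1268) lie at the low end of the male heads (1189.5 to 2022).

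The tables were normalized separately by tissue, so levels in abdomen and head were set side by side as counts per megaread (CPM, the Sxl reads per M reads counted to genes), with no test. In females, Sxl averaged 54.7 CPM in head and 134 CPM in abdomen, a ratio of 0.407. In males of all genotypes it averaged 70.6 CPM in head and 34.1 CPM in abdomen, a ratio of 2.07. The ratio of head over abdomen was 1.97 in YM, 2.32 in YM(III), 1.95 in IIIM #1 and 2.08 in IIIM #2 males. Males of every genotype thus had a larger share of Sxl reads in head, and females in abdomen.

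The abdomen difference between sexes was tested with limma on log2(normalized read count + 1), fitted over all 11486 genes tested. Sxl was higher in females by 1.54 on the log2 scale (SE 0.20, 95% interval 1.11 to 1.98), with a limma adjusted p of 2.88e-05. Genes called at an adjusted p under 0.05 made up 71.3% of those tested in this comparison, with 32.4% higher and 39% lower in females, so a call alone does not set Sxl apart in abdomen. On this signed scale 78.4% of genes lay below Sxl. An exact permutation test over libraries gave a two-sided p of 0.011, the smallest that the 91 arrangements allow. In bulk tissue, fewer cells that express a gene and less RNA per cell cannot be told apart, and an abdomen holds the gonads of its sex.

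Each male genotype showed the same direction against the 2 female abdomens. The log2 difference of females minus males was 1.77 against YM males (limma adjusted p = 5.76e-05, with 65.5% of genes called), 1.58 against YM(III) males (0.000136, 63.3%), 1.55 against IIIM #1 males (0.000152, 65.4%) and 1.26 against IIIM #2 males (0.000656, 64.8%). These comparisons share the female libraries. Within strains, the IsoCS female had 704 and the YM males of the same strain averaged 223, a 3.15-fold difference. The CSrab female had 794 and the IIIM #2 males of that strain averaged 313, a 2.53-fold difference. Each of these females thus exceeded all 3 males of its own strain.

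The size of the abdomen difference moved with the scaling of libraries, because all genes moved with it. On the deposited scale the median log2 difference of all genes, females minus males, was −0.42. On the CPM scale that median was 0.04, and the difference for Sxl was 2.00. Relative to the median of all genes, Sxl was higher in females by 1.97 on the deposited scale and by 1.96 on the CPM scale. That median depends on the genes kept. With genes of a mean of at least 50 alone it was 0.11 on the deposited scale, and Sxl stayed at 1.54, so its lead over the median was smaller.

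In head, Sxl was lower in females by a smaller margin. The log2 difference of females minus males was −0.37 (SE 0.11, 95% interval −0.62 to −0.12), with a limma adjusted p of 0.0437, and 16.5% of the 12234 genes tested were called, 10.1% as higher and 6.41% as lower in females. The exact permutation test over libraries gave a two-sided p of 0.011 over 455 arrangements. The call sat close to its threshold: leaving out a single library moved the adjusted p to between 0.0274 and 0.211, and the call was lost in 11 of 15 such fits, with the difference between −0.46 and −0.31. Without female replicate 1, 2 or 3 the adjusted p was 0.169, 0.0608 or 0.211.

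Against single male genotypes, the head difference passed the test for IIIM #2 males alone, at −0.63 (SE 0.14, 95% interval −0.94 to −0.32, limma adjusted p = 0.0146, with 12.1% of genes called). The log2 difference was −0.30 against YM males (limma adjusted p = 0.231, with 8.17% called), −0.35 against YM(III) males (0.159, 8.48%) and −0.21 against IIIM #1 males (0.457, 6.11%). The call against IIIM #2 males was lost without female replicate 1 (limma adjusted p = 0.059), without female replicate 3 (0.0715) or without IIIM #2 replicate 2 (0.071). IIIM #2 males and the other male genotypes did not themselves differ past the test in head. The female heads were below every male head of their own strain. The IsoCS female had 1077 against a mean of 1376 in YM males, a ratio of 0.783. The CSrab female had 1268 against 1741 in IIIM #2 males, a ratio of 0.728, and the CS female had 1022 against 1294 in IIIM #1 males, a ratio of 0.790.

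Sex differences called in both tissues were counted by direction. In single tissues, 32.4% of genes tested were called higher in female abdomens and 6.41% lower in female heads. Of 10345 genes tested in both tables, 1351 (13.1%) were called in both. Sxl was among the 240 genes (2.32%) called higher in female abdomens and lower in female heads. The opposite combination held 537 genes (5.19%), while 347 (3.35%) were called higher and 227 (2.19%) lower in females in both tissues. Because each tissue was scaled on its own, the difference between the tissues was not tested.

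**Figure D2:**
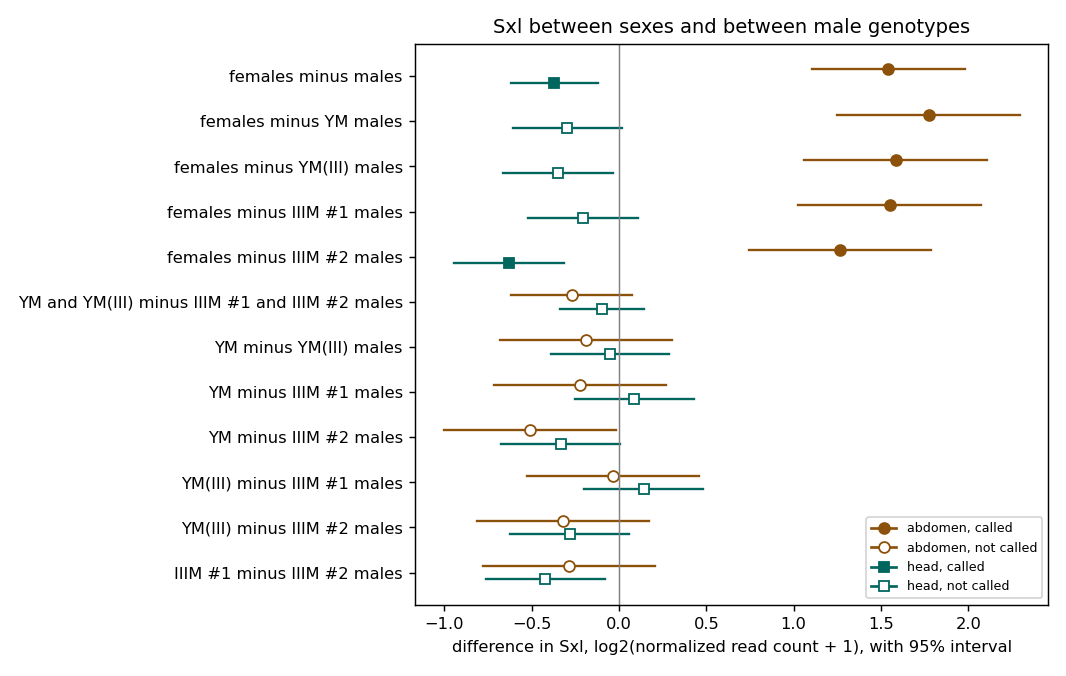
Differences in Sxl on the log2(normalized read count + 1) scale with 95% intervals from limma, for abdomen (circles) and head (squares). Filled symbols passed an adjusted p of 0.05. In abdomen every comparison with females lies to the right of 0, between 1.26 and 1.77, in head those comparisons lie to the left, and the comparisons among males are all open symbols.

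Few markers by which to check the labels carry a usable symbol. Of the lists used, 1 of 23 sex determination genes and 1 of 6 fat body genes could be found (in both cases yp3), 1 of 19 ovary and germline genes (bcd), 1 of 12 neuron and photoreceptor genes (pdf) and 0 of 6 ELAV and RNA-binding relatives. The egg transcript bcd had 181 and 78.2 normalized read counts in female abdomens, against 0 to 3.4 in male abdomens, and in heads 0 to 0.654 in females and 0 in males. The yolk protein gene yp3, expressed in fat body and ovary, had 3487 and 2460.2 in female abdomens against 49.3 to 789 in male abdomens, a log2 difference of 4.34 (SE 0.76, limma adjusted p = 0.000296). In heads yp3 had 582, 608 and 6560 in females, against 24.3 to 149 in males, a log2 difference of 4.59 (limma adjusted p = 0.000697). The clock neuropeptide gene pdf lay at 0 to 8.8 in all abdomens, and in heads at 562 to 624 in females and 411 to 1620 in males, with a log2 difference of −0.74 (SE 0.37, limma adjusted p = 0.2). Egg and yolk transcripts were thus higher in female abdomens, as Sxl was, and yp3 but not bcd was also high in female heads, where Sxl was low. Their part in the Sxl difference was not tested.

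Among males the question was whether Sxl differs with the proto-Y chromosome. YM and YM(III) males together averaged 236 ± 39.6 in abdomen, against 284 ± 45.1 in IIIM #1 and IIIM #2 males together (SD, n = 6 each), a log2 difference of −0.27 (SE 0.16, 95% interval −0.62 to 0.08, limma adjusted p = 0.834). The abdomen difference was −0.16 without YM replicate 2 and −0.11 without that library and IIIM #2 replicate 2, which are the shallowest of all. In head these groups averaged 1399.5 ± 86.1 and 1518 ± 299, a log2 difference of −0.10 (SE 0.11, 95% interval −0.34 to 0.14, adjusted p of 1), and the difference was −0.04 without IIIM #2 replicate 2. Of all genes tested, 0.0265% were called in abdomen and 0.473% in head in this comparison. The intervals leave room for a pooled difference of up to 0.62 in abdomen and 0.34 in head on the log2 scale, with less in the YM types.

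All 6 pairs of male genotypes were compared in each tissue. In abdomen, the log2 difference was −0.19 for YM minus YM(III) (95% interval −0.68 to 0.30), −0.22 for YM minus IIIM #1 (−0.72 to 0.27), −0.51 for YM minus IIIM #2 (−1.0 to −0.02), −0.03 for YM(III) minus IIIM #1 (−0.53 to 0.46), −0.32 for YM(III) minus IIIM #2 (−0.81 to 0.17) and −0.29 for IIIM #1 minus IIIM #2 (−0.78 to 0.21). The SE was 0.22 in each, and the limma adjusted p ran from 0.294, for YM minus IIIM #2, to 1. The share of genes called was 9.23% for YM minus YM(III), 0.0705% for YM minus IIIM #1, 0.855% for YM minus IIIM #2, 0.185% for YM(III) minus IIIM #1, 0.397% for YM(III) minus IIIM #2 and 0.0441% for IIIM #1 minus IIIM #2. The lowest and the highest male abdomen are YM replicate 2 and IIIM #2 replicate 2, whose values rest on 21 and 41 reads of Sxl. YM minus IIIM #2 was −0.29 without YM replicate 2 and −0.18 without both of these libraries. Without YM replicate 2, YM minus YM(III) was 0.0306 and YM minus IIIM #1 was −0.0036, and without IIIM #2 replicate 2, YM(III) minus IIIM #2 was −0.21 and IIIM #1 minus IIIM #2 was −0.18.

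In head, the pairs that involve IIIM #2 were again the largest. The log2 difference was −0.42 for IIIM #1 minus IIIM #2 (95% interval −0.76 to −0.08), −0.33 for YM minus IIIM #2 (−0.67 to 0.01) and −0.28 for YM(III) minus IIIM #2 (−0.62 to 0.06). Without IIIM #2 replicate 2, YM minus IIIM #2 was −0.22 and YM(III) minus IIIM #2 was −0.17. The difference was −0.05 for YM minus YM(III) (−0.39 to 0.29), 0.09 for YM minus IIIM #1 (−0.25 to 0.43) and 0.14 for YM(III) minus IIIM #1 (−0.20 to 0.48). The SE was 0.15 in each, and the limma adjusted p ran from 0.74 to 1. The share of genes called was 0.846% for YM minus IIIM #2, 0.489% for YM(III) minus IIIM #2, 0.804% for YM minus YM(III), 0.357% for YM minus IIIM #1 and 0.166% for YM(III) minus IIIM #1.

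The 2 IIIM genotypes did not overlap in head: IIIM #1 males lay at 1189.5 to 1412 and IIIM #2 males at 1570.0 to 2022. YM males (1268 to 1503) and YM(III) males (1364 to 1459) lay wholly below IIIM #2 males as well. The share of all genes that separate in this way was not computed. For IIIM #1 minus IIIM #2 in head the unadjusted limma p was 0.0195, and adjusted over 12060 genes it was 0.944, with 0.174% of genes called. Within replicate numbers, the log2 difference of IIIM #1 minus IIIM #2 was −0.35, −0.77 and −0.15 in head and −0.26, −0.59 and −0.01 in abdomen, negative in all 6. These genotypes do not overlap in either tissue, so any matching of their libraries gives negative values and the count adds nothing to that. In head the same holds for YM and YM(III) males against IIIM #2. YM(III) minus IIIM #2 was also negative in all 6, at −0.17, −0.47 and −0.20 in head and −0.24, −0.60 and −0.11 in abdomen. YM minus IIIM #2 was above 0 in abdomen replicate 3 alone, at 0.04. The numbers were not taken as pairs in abdomen. Without IIIM #2 replicate 2, IIIM #1 minus IIIM #2 in head was −0.31. With replicates 1 and 2 alone, the head difference was −0.56 and passed the test (limma adjusted p = 0.0422). That fit keeps IIIM #2 replicate 2, at 2022 and 6.12 M reads, as 1 of its 2 IIIM #2 libraries. The share of all genes called in it is not given here. The authors' deposited table, whose means use replicates 1 and 2 alone, lists Sxl in head at a log2 fold change of 0.56 with an adjusted p of 0.0182. That fold change is IIIM #2 over IIIM #1, the opposite direction to the differences above, and the deposited table calls 5.96% of genes in that comparison. In abdomen the authors' deposited table gives 0.44 for the same ratio, with an adjusted p of 1.

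For the other pairs, the authors' deposited table gives Sxl a log2 fold change in abdomen of 0.30 for YM(III) over YM (adjusted p = 0.887), 0.36 for IIIM #1 over YM (0.803) and 0.76 for IIIM #2 over YM (0.593). In head the authors' deposited table gives 0.15 (0.758), −0.09 (1) and 0.47 (0.224) for the same ratios. None passed an adjusted p of 0.05.

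Male libraries of replicate 3 stand apart from the others in many genes, and Sxl was not called among these. Between replicate 3 and replicates 1 and 2, with genotype as a term, limma called 31.3% of genes in abdomen and 49% in head. Sxl averaged 261 ± 11.5 in replicate 3 abdomens (n = 4), against 259.999 ± 59.2 in those of replicates 1 and 2 (n = 8), a log2 difference of 0.04 (SE 0.16, 95% interval −0.32 to 0.39, limma adjusted p = 0.882). In head the means were 1462 ± 92.0 and 1457 ± 267, with a log2 difference of 0.02 (SE 0.10, 95% interval −0.20 to 0.24, limma adjusted p = 0.87). The 4 genotypes lay closer together in replicate 3, at 244 to 271 in abdomen, than in the other replicates. Replicate 3 males were also sequenced deeper, at 17.6 to 43.5 M reads in abdomen against 0.789 to 8.58 M in replicates 1 and 2. In head they held 31.9 to 39.2 M reads against 5.80 to 30.8 M. Replicate number and depth thus cannot be told apart, in the spread of Sxl or in the shares of genes called.

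Depth set the precision of single values. Male abdomens held 0.789 to 43.5 M reads and between 21 and 1831 reads of Sxl. YM replicate 2, with 21 reads, had a 95% counting interval of 99.5 to 246 normalized read counts, and IIIM #2 replicate 2, with 41 reads, one of 259 to 490. These are the 2 libraries under 1 M reads. The female abdomens had 4298 and 1777 reads of Sxl. In head every library had at least 349 reads, and the highest head, IIIM #2 replicate 2 at 2022, had an interval of 1858 to 2197, above every other library's value. Within groups, its residual SD was 0.223 on the log2 scale in abdomen and 0.14 in head in the fits with both sexes, and 6.19% and 4.02% of genes varied less. Among the 1000 genes nearest to Sxl in level these shares were 12.8% and 7.89%.

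**Figure D3:**
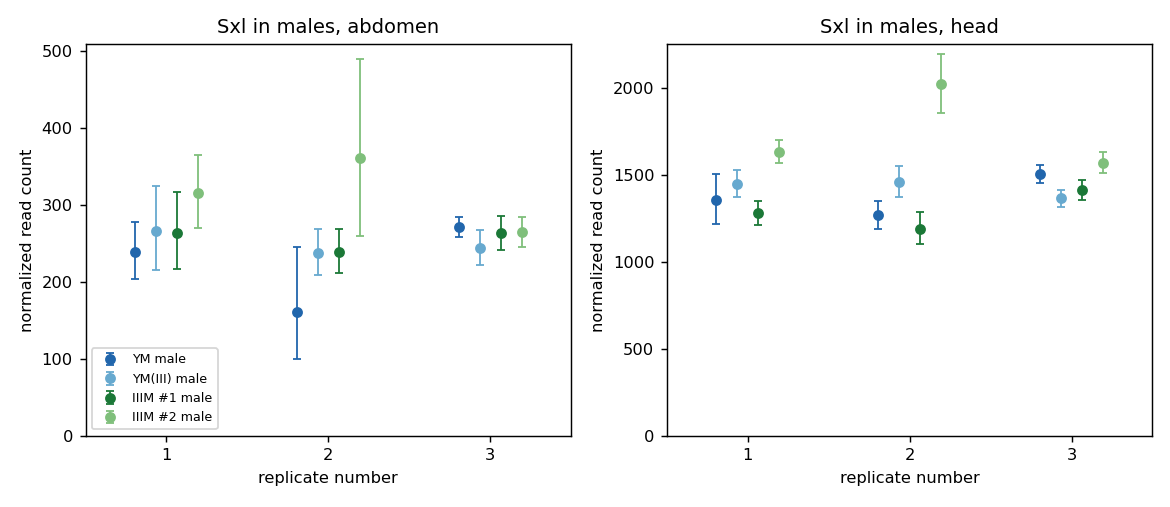
Normalized read count of Sxl in each male library against replicate number (a label without order), for abdomen (left) and head (right), with 95% counting intervals. Within abdomen the widest intervals are those of IIIM #2 and YM in replicate 2, with 41 and 21 reads. IIIM #2 lies above IIIM #1 and YM(III) within every replicate number in both tissues.

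Sxl lies on chromosome III, which differs between the YM and IIIM males. Of the genes on that element, 1738 were tested in abdomen and 1799 in head for the pooled YM types against the pooled IIIM types. In abdomen their median log2 difference was 0.04, against −0.01 for all genes, and Sxl had −0.27. In head it was 0.03, against −0.01, and Sxl had −0.10; limma called 4 genes of the element (0.222%) higher and 3 (0.167%) lower in the YM types, near the 0.473% called in all over every gene tested. For sex in abdomen, 616 of 1756 genes on the element (35.1%) were called higher and 650 (37.0%) lower in females, near the 32.4% and 39% of all genes, and their median was −0.14 against −0.42 for all genes. In head 191 of 1814 (10.5%) were called higher and 105 (5.79%) lower in females, near the 10.1% and 6.41% of all genes, with a median of 0.02 against 0.01.

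The genes listed next to Sxl in the reference order were read as well, 3 on either side, of which 4 have values in the tables. The reference table gives an order and no contig names, so distances are not given. They carry locus identifiers alone, and all 4 are on element A. LOC101898177, listed directly before Sxl, had 5.59 ± 1.59 normalized read counts in female and 89.4 ± 23.8 in male abdomens, a log2 difference of −3.75 (SE 0.29, limma adjusted p = 7.4e-07). The gene listed directly after Sxl has no values here. In heads it had 498 ± 40.8 in females and 870 ± 338 in males (−0.72, limma adjusted p = 0.0427). LOC101899217 had 37.4 ± 1.08 in female and 731 ± 263 in male abdomens (log2 difference −4.15, limma adjusted p = 3.7e-06), and 0.80 in heads (adjusted p = 0.413). LOC101899397 had 486 ± 127 in female and 85.5 ± 23.4 in male abdomens (log2 difference 2.52, limma adjusted p = 2.09e-06), and −0.03 in heads (adjusted p = 0.942). LOC101898004 did not pass in either tissue, at −1.56 in abdomen (limma adjusted p = 0.183) and −0.45 in head (0.51). The neighbours thus went in both directions in abdomen, and the gene listed directly before Sxl was lower in females there. Of all genes tested, 71.3% were called between the sexes in abdomen and 16.5% in head.

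The genes whose pattern was most like that of Sxl were ranked by Pearson's r of log2(normalized read count + 1) over the 29 libraries, with each gene centred within its table. The libraries share sex, tissue and depth, so r is a description, and the values of genes picked in this way are given with no test. Of 10344 genes compared, 13 had an r over 0.9, and the median was −0.06. The highest 5 all have locus identifiers alone: LOC101896105 (r = 0.935), LOC101894168 (0.924), LOC101888645 (0.921), LOC101895000 (0.919) and LOC101896367 (0.912). LOC101896105 had 339 ± 54.7 normalized read counts in female and 20.9 ± 8.08 in male abdomens, and 2542 ± 867 in female and 5881 ± 1645 in male heads. Its log2 difference of females minus males was 4.03 in abdomen and −1.21 in head, larger than that of Sxl in both. The other 4 had differences of 2.03 to 2.79 in abdomen and −0.38 to −0.23 in head.

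Among the 43 genes compared that have a name, HR96, a nuclear receptor gene, was the most like Sxl, with an r of 0.807. It had 146 ± 61.2 normalized read counts in female and 41.1 ± 15.6 in male abdomens, and 404 ± 16.3 in female and 536 ± 103 in male heads. CCT-zeta, a subunit of the cytosolic chaperonin, and prohibitin, of the mitochondrial inner membrane, came next, with r of 0.489 and 0.481. Both were like Sxl in abdomen alone: CCT-zeta had an r of 0.86 in abdomen and −0.66 in head. The named genes least like Sxl were CYB2 (r = −0.874), MdaE7 (−0.837) and argos (−0.816), an inhibitor of EGF receptor signalling in Drosophila. MdaE7 had a log2 difference of females minus males of −3.75 in abdomen and 0.88 in head. Among the 24 male libraries, centred within genotype and tissue, 0 genes had an r over 0.9, and the highest were LOC105261650 (0.883), LOC101889672 (0.787) and LOC101898853 (0.755).

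**Figure D4:**
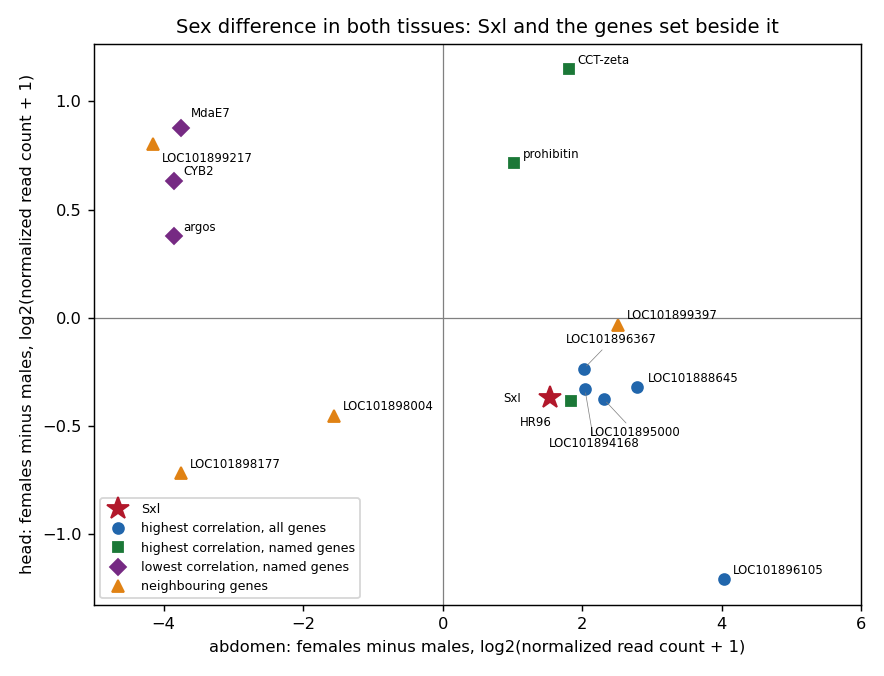
Difference of females minus males on the log2(normalized read count + 1) scale in abdomen (horizontal) and head (vertical) for Sxl, the genes with the highest and lowest correlation to it, and its neighbours in the reference order. Sxl lies at 1.54 and −0.37, next to HR96 and 4 of the 5 genes most like it, while LOC101896105 lies farther out at 4.03 and −1.21.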

How the data were processed

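Poly(A) RNA from abdomens and heads was made into stranded libraries (TruSeq Stranded mRNA), per the labels' protocols. Tools named in the submitters' processing notes are DESeq2 1.16.1, HTSeq 0.9.1, HISAT2 0.12.2 and CASAVA 1.8; no genome build is named there. The authors deposited normalized counts per library, a linear signal in which the reads of a library are scaled by a single factor, in 1 table per tissue. All values (100%, tolerance 0.001 reads) came out as whole reads, which gave depths, CPM and counting intervals (95%, exact Poisson; counting error only). The authors also deposited log2 fold changes, adjusted p-values and mean normalized counts per comparison. Identifiers matched the RefSeq gene table (GCF_030504385.1 assembly, used for names and order) for 13644 genes and not for 2896.

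A gene was tested if 3 or more libraries had a value of 10 or more, on log2(value + 1), which understates changes of low genes, with limma 3.58.1 in R 4.3.3 (trend, robust, a mean per group, two-sided, Benjamini-Hochberg over all genes tested). The sexes were compared as females minus the mean of the 4 male genotype means, in 11486 genes of abdomen and 12234 of head. Male genotypes were compared in a fit without females, with 11342 and 12060 genes. The fit was tested on simulated data. edgeR 4.0.16 and DESeq2 1.42.0 on the recovered reads were alternatives. Python 3.11.15 and matplotlib 3.10.9 served for permutation tests and plots. Replicates are labelled as such, and the limma p-values set differences against the spread between libraries within groups. The female libraries of a tissue each came from a different strain, while male libraries of a genotype shared a strain.

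Same-numbered male libraries deviated together in head (correlation 0.287 to 0.681 in all pairs), so the numbers were taken to pair the samples there. The main limma fits hold group means alone and do not use this pairing. Fits with a replicate block are given in the closing section. In abdomen 1 of the pairs fell at 0.069, under 0.1, and the numbers were not taken as pairs. Sxl, the gene lists and the tests were chosen with earlier results of these data known. The genes named beside Sxl are the 5 most like it of all genes, the 3 most and 3 least like it of named genes, the 3 most like it within male genotypes, its 3 neighbours on either side, and every list member found. Proteins similar to Sxl were not analysed here.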

Additional observations from a re-analysis of the deposited data

Results flagged for a closer look

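In abdomen, 1 of the 6 libraries of YM and YM(III) males lay far from the others. YM replicate 2 had 161 normalized read counts of Sxl, and its gap to the next library took 0.694 of the range of the 6, above Dixon's critical value of 0.625. The value rests on 21 reads. Chance alone gives such a gap in about 5% of groups, and 4 groups were examined.

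The sex difference had opposite signs in the tissues: females minus males was 1.54 in abdomen and −0.37 in head on the log2 scale. The difference between the tissues was not tested.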

How the results depend on the processing

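The differences between sexes and between male genotypes were recomputed under other scalings, filters, pseudocounts, tools and sample sets and with each library left out, and that between replicate numbers with each library left out alone. Of 415 values counted for 16 comparisons, 390 kept their direction and their side of the threshold. This count covers females against all males and the comparisons of male genotypes, in each tissue. It leaves out females against single male genotypes, and replicate numbers. No comparison of male genotypes passed in the main fit, so for these the same side meant still not called. The head sex difference kept its call in 10 of 15 other settings and in 4 of 15 fits with a library left out. For the cases given here the cause was not tested.

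The abdomen sex difference kept its call in all 16 other settings (1.51 to 2.00 on the log2 scale) and in 14 of 14 fits without 1 library (1.46 to 1.63). The head sex difference lost its call with CPM scaling (−0.36, adjusted p = 0.0939), with no filter (−0.37, 0.0576), with edgeR (−0.35, 0.0509), with thinned reads (−0.38, 0.0793) and with all males as 1 limma group (−0.37, 0.0721). It ranged between −0.46 and −0.31 without 1 library, and DESeq2 gave an adjusted p of 0.00756. The comparison of female heads with IIIM #2 males lost its call when limma was fitted to those groups alone (−0.63, adjusted p = 0.0754), and ranged between −0.72 and −0.52 without 1 library.

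Among males, IIIM #1 minus IIIM #2 in head passed with replicates 1 and 2 only (−0.56, limma adjusted p = 0.0422), a fit that keeps IIIM #2 replicate 2, the highest head. Differences near 0 changed sign. In abdomen, YM minus YM(III) was 0.27 with CPM scaling, 0.0306 without the 2 libraries under 1 M reads and between −0.34 and 0.0306 without 1 library, YM minus IIIM #1 was 0.0588 with CPM scaling, and YM(III) minus IIIM #1 was 0.0022 with replicates 1 and 2 and 0.19 with thinned reads. In head, YM minus YM(III) was 0.0209 with CPM scaling and between −0.12 and 0.00427 without 1 library. Replicate 3 against the others ranged between −0.11 and 0.17 in abdomen and between −0.0358 and 0.10 in head without 1 library.

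A replicate block changed no call. With it, the sex difference was 1.55 in abdomen (limma adjusted p = 3.23e-05) and −0.37 in head (0.0366), and IIIM #1 minus IIIM #2 in head was −0.42 (0.363). Leaving out libraries under 1 M reads has no counterpart in head. The 2 female abdomens and the 21 and 41 Sxl reads of the shallowest males limit the precision.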
